A study of Homo sapiens with 19 samples.

Results

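Cholesterol is built from acetyl-CoA through the mevalonate pathway and a series of sterol intermediates, and fatty acids are built from the same precursor by a shorter set of enzymes. Both sets of genes are switched on by the SREBP transcription factors, encoded by SREBF1 and SREBF2, which are escorted out of the endoplasmic reticulum by SCAP when sterols run low and held back there by INSIG1 and INSIG2 when sterols are plentiful. In pigment cells, as in other dividing cells, these products supply membranes, and MITF is the lineage transcription factor that was silenced here beside BRG1, the ATPase subunit of the SWI/SNF (BAF and PBAF) chromatin remodelling complexes.

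The genes described are 33 named genes of sterol synthesis, SREBP control, sterol transport and fatty acid synthesis, taken from a list by symbol. Of these, 32 were matched to an Ensembl identifier in the count tables, among 44717 identifiers listed for any sample, and ACACA was not matched and is not analysed here. All 32 were listed in every sample, had at least 160 reads in each, and passed the filter on low counts in every comparison. The genes fall into 5 roles: 8 of the mevalonate steps, 11 of the steps from squalene to cholesterol, 5 of SREBP control, 1 of sterol transport and 7 of fatty acid synthesis.

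RNA-seq was read in 19 samples. 501Mel is a human melanoma line and Hermes 3A an immortalised, untransformed human melanocyte line. All cells carried a lentiviral pLKO vector expressing a short hairpin RNA, with 1 construct per target in the methods, so that effects of a single hairpin cannot be told apart from those of the silenced gene. 501Mel cells received a scramble hairpin labelled shSCR1 or shBRG1 (3 replicates each), or a scramble hairpin labelled shSCR2 or shMITF (2 replicates each). Hermes 3A cells received shSCR, shBRG1 or shMITF (3 replicates each). Both lines were grown in RPMI with fetal calf serum, but the Hermes 3A medium also held the phorbol ester TPA, cholera toxin, stem cell factor and endothelin-1, so line and medium cannot be told apart. The methods state in general that experiments were repeated but do not tie each library to a separate culture, and 2 groups hold only 2 samples here; p-values therefore measure the spread between these samples, which may be technical.

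Gene counts summed to 29158502 in the shallowest sample and 78857900 in the deepest. SMARCA4, which encodes BRG1, was at 178 to 193 CPM (read counts scaled to the library total) with shSCR1 and 35.8 to 40.6 with shBRG1 in 501Mel cells, and at 227 to 255 with shSCR and 44.4 to 47.5 with shBRG1 in Hermes 3A cells. MITF was at 1048 and 1186 CPM with shSCR2 and 494 and 546 with shMITF in 501Mel cells, and at 1014 to 1119 with shSCR and 456 to 719 with shMITF in Hermes 3A cells. In 501Mel cells SMARCA4 and MITF were each higher with shSCR2 than with shSCR1, by log2 differences within 0.83 to 0.97. The fall of MITF with shMITF in 501Mel cells is therefore given against shSCR2 only, a log2 fold change of -1.06. This is close in size to the difference between the scramble groups, so the fall is much smaller against shSCR1. MITF also fell with shBRG1, by a log2 fold change of -1.55 in 501Mel cells and -0.43 in Hermes 3A cells. The 6 melanocyte lineage markers were detected in every sample. Their summed level was 28040 to 30160 CPM with shSCR1 against 2953 to 3218 with shBRG1, 19360 to 21830 with shSCR2 against 10170 to 10840 with shMITF, and in Hermes 3A cells 60740 to 61770 with shSCR against 28710 to 30310 with shBRG1 and 23080 to 32230 with shMITF. PMEL and TYRP1 made up 83.0% to 93.8% of this sum in each sample. Marker by marker, all 6 were lower at an adjusted p under 0.05 with shBRG1 in each line and 5 of 6 with shMITF in each line. The exceptions were GPR143 in 501Mel cells (log2 fold change -0.21, edgeR adjusted p = 0.459) and SOX10 in Hermes 3A cells (0.28, edgeR adjusted p = 0.618). The part of these markers in the results below was not tested. The keratinocyte markers KRT5, KRT14 and KRT1 had at most 7 reads in any sample that listed them, and KRT10 had up to 2741. KRT10 was at 32.0 to 34.5 CPM with shSCR in Hermes 3A cells, 27.3 to 29.5 with shBRG1 (log2 fold change -0.21, edgeR adjusted p = 0.00485) and 43.3 to 64.6 with shMITF (0.64, edgeR adjusted p = 0.0366). The adipocyte markers had at most 24 reads. Of the hepatocyte markers TTR reached 707 reads and the other 3 at most 17. TTR was at 6.73 to 7.42 CPM with shSCR in Hermes 3A cells, 10.7 to 12.8 with shBRG1 (0.72, edgeR adjusted p = 9.09e-08) and 9.24 to 26.0 with shMITF (1.26, edgeR adjusted p = 0.034). The summed fibroblast markers rose from 3.72 to 5.16 CPM with shSCR1 to between 16.2 and 19.9 with shBRG1 in 501Mel cells, and from 71.5 to 80.1 CPM to between 138 and 147 in Hermes 3A cells, there mostly COL1A2. With shMITF they were 7.30 to 13.2 CPM against 7.43 to 8.50 in 501Mel cells, and 112 to 219 in Hermes 3A cells. Of single fibroblast markers, 4 of 5 tested rose with shBRG1 in 501Mel cells at an adjusted p under 0.05 (41.2% of all genes). In Hermes 3A cells 2 of 4 rose and 1 fell with shBRG1 (28.2% and 28.6%). With shMITF 2 of 3 tested rose in 501Mel cells (10.0%) and 2 of 4 in Hermes 3A cells (7.85%). The part of KRT10, TTR and the fibroblast markers was not tested either. In bulk RNA, fewer cells of a type and less RNA per cell cannot be told apart. The spread between replicates, as edgeR's biological coefficient of variation, was 4.56% to 5.88% in 4 groups but 16.5% with shSCR2, 17.4% with shMITF in 501Mel cells and 28.6% with shMITF in Hermes 3A cells, so the shMITF comparisons resolve only larger differences.

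The promoters of 5 genes on which the results turn are shown, from RefSeq on GRCh38.p14, each running from 250 bases before to 50 after the annotated start and written 5′ to 3′ on the gene's strand. SREBF1 and SREBF2 encode the pathway's own transcription factors, INSIG1 and SCD were lowered most by shBRG1 in 501Mel cells, and STARD4 moved in opposite directions in the 2 lines. They lie at chr17:17836937-17837236 (- strand), chr22:41832855-41833154 (+ strand), chr7:155297628-155297927 (+ strand), chr10:100346983-100347282 (+ strand) and chr5:111512486-111512785 (- strand). Capitals mark the classical sterol regulatory element, searched in a longer form and a form without its first letter, CACGTG or CATGTG (E-boxes, the kind of site that MITF and SREBP1 are known to bind) and CCAAT (the site of NF-Y, a usual partner of SREBPs), each searched on both strands, so that CCAAT on the other strand reads ATTGG.
SREBF1: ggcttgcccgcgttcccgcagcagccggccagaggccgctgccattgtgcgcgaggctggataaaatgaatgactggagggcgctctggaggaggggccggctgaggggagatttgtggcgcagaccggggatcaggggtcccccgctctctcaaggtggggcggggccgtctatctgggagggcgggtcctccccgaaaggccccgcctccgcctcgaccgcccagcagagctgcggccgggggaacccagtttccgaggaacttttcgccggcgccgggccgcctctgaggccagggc
SREBF2: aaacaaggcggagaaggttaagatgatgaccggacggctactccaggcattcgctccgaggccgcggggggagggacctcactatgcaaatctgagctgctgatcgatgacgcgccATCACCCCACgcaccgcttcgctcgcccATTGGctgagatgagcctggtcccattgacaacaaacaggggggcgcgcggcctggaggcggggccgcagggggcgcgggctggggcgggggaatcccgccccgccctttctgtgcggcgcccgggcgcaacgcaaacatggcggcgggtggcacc
INSIG1: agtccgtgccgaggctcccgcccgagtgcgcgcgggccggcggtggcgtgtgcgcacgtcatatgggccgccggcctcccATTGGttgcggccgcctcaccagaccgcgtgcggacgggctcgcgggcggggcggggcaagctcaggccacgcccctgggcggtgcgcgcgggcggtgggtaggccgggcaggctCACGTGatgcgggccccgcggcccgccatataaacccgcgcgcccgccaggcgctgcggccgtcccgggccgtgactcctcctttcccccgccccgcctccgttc
SCD: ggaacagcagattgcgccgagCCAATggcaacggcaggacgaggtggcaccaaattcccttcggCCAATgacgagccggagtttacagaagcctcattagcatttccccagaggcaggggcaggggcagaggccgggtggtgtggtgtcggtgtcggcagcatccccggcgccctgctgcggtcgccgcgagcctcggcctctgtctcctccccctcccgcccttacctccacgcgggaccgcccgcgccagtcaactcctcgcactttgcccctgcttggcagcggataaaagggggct
STARD4: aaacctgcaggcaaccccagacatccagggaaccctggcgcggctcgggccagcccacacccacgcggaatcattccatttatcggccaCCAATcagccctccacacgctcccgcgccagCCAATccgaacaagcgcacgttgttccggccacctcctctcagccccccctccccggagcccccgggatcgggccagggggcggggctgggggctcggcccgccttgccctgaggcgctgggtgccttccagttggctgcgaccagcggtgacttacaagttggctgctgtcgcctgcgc

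RefSeq promoters were matched for 28 of the 32 genes, and ACAT2, FDFT1, SQLE and FASN were not matched. The exact letters of the classical sterol regulatory element were found in 1 of the 28 genes, SREBF2, in both forms. Over the 39 promoters of the 28 genes this is 2.56%, against 0.0456% (longer form) and 0.43% (shorter form) of all 35116 promoters of the same length. Variants of the element that differ in any letter were not searched for, so genes without a match may still hold one. CACGTG was found in 4 genes (INSIG1 at -55, LSS, SC5D and SCAP), or 12.8% of the 39 promoters against 7.26% of all. CATGTG was found in TM7SF2 alone, 2.56% against 11.1%. CCAAT was found in 21 genes, 61.5% of promoters against 34.6%, and GGGCGG, the core of the GC box that SP1 binds, in 27 genes, 89.7% against 45.0%. The SREBF1 window held none of the capitalised letters. These matches are descriptions of letters in the window only.

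The first comparison asked how these genes responded to loss of BRG1 in melanoma cells. With shBRG1 in 501Mel cells, 26 of the 32 genes were lower and 3 higher than with shSCR1 at an adjusted p under 0.05 (quasi-likelihood test of edgeR, Benjamini-Hochberg adjusted over all 20514 genes tested), where 39.1% of all genes tested were lower and 41.2% higher. At the study's thresholds, which add a log2 fold change beyond 1 in size, 17 were lower and none higher, where 17.4% of all genes were lower and 21.7% higher. Their median log2 fold change was -1.03, against 0.05 over all genes tested. All shBRG1 samples lay below all shSCR1 samples for 25 genes and above them for 3, where this held for 39.4% and 42.0% of all genes tested.

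**Figure D1:**
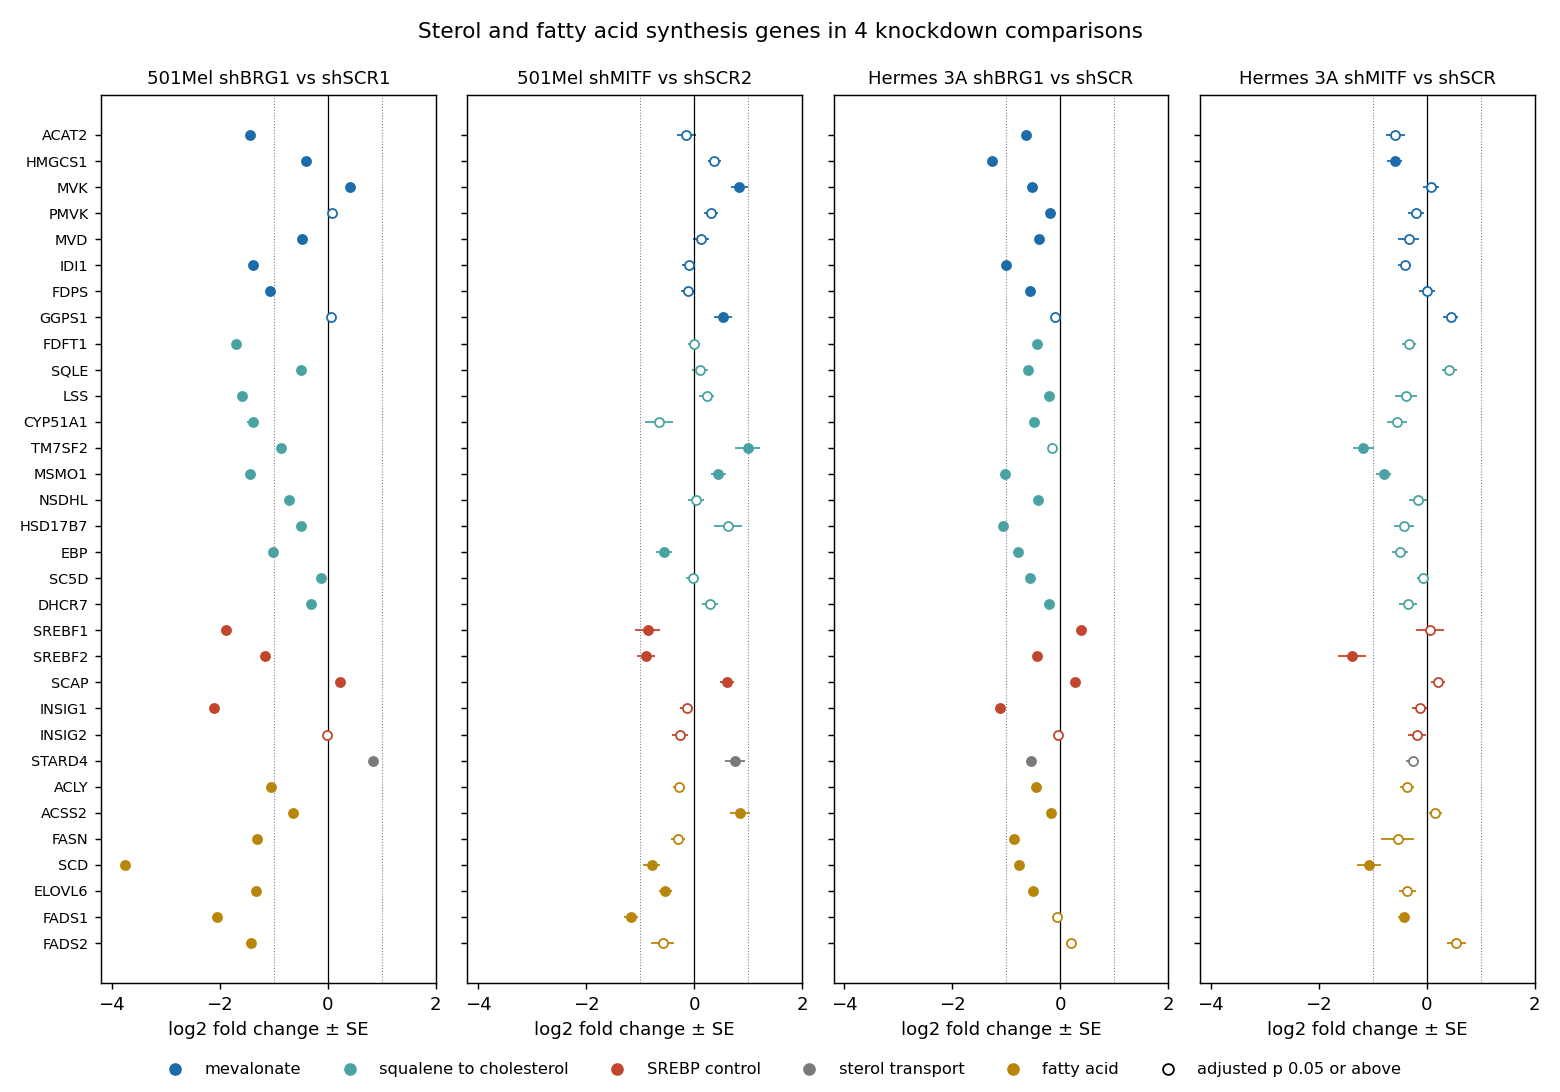
Log2 fold change with its standard error (horizontal axis) for each of the 32 genes (rows, coloured by role) in the 4 knockdown comparisons (panels); filled points are at an adjusted p under 0.05, and dotted lines mark a log2 fold change of 1 in either direction. Most points of the 501Mel shBRG1 panel lie left of 0, with SCD at -3.76, whereas those of the 501Mel shMITF panel lie on both sides.

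Of the fatty acid genes, all 7 fell in 501Mel cells with shBRG1, 6 of them by more than the fold threshold. SCD (ENSG00000099194), the stearoyl-CoA desaturase that makes monounsaturated fatty acids, stood at 625, 687 and 673 CPM with shSCR1 and at 55.4, 45.6 and 51.9 with shBRG1. Every shBRG1 sample was far below every control, and the fitted difference was 13.6-fold, a log2 fold change of -3.76 ± 0.065 (SE, edgeR adjusted p = 2.87e-23). This was the most negative value of the 32 genes in any of the 4 knockdown comparisons. FADS1 (ENSG00000149485), the delta-5 desaturase of polyunsaturated fatty acids, stood at 176, 198 and 193 CPM with shSCR1 and at 48.3, 46.5 and 49.0 with shBRG1. The groups did not overlap, and the log2 fold change was -2.04 ± 0.052 (SE, edgeR adjusted p = 2.42e-20). Its neighbour FADS2, the delta-6 desaturase, was much less abundant (8.89 ± 0.289 against 3.48 ± 0.297 CPM, mean ± SD, n = 3 each) and fell, with a log2 fold change of -1.42. The 2 genes share 490 exon bases on opposite strands, and whether counting used strand is not given. The counts of FADS2 are therefore uncertain, and reads of FADS1 may be part of them. ELOVL6 (elongation of palmitate), FASN (the fatty acid synthase) and ACLY (which makes cytosolic acetyl-CoA from citrate) fell, with -1.33, -1.31 and -1.04 on the same scale, and ACSS2, which makes acetyl-CoA from acetate, changed by -0.64.

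Of SREBP control, 3 genes fell in 501Mel cells with shBRG1, 1 rose slightly and 1 did not pass the test. INSIG1 (ENSG00000186480), itself a target of SREBPs, was at 186, 197 and 197 CPM with shSCR1 and at 46.9, 48.6 and 44.7 with shBRG1, with no overlap and a log2 fold change of -2.11 ± 0.05 (SE, edgeR adjusted p = 5.90e-21). SREBF1 (ENSG00000072310) was at 134, 139.6 and 135 CPM with shSCR1 and at 39.4, 37.9 and 37.9 with shBRG1. The shBRG1 samples were close to each other and below all controls, with a fitted difference of 3.71-fold, a log2 fold change of -1.89 ± 0.048 (SE, edgeR adjusted p = 1.82e-20). SREBF2 (ENSG00000198911) was at 510.4, 555 and 531 CPM against 251, 255 and 244, again without overlap, a log2 fold change of -1.16 ± 0.048 (SE, edgeR adjusted p = 1.95e-16). SCAP rose from 81.5 ± 0.364 to 99.4 ± 4.97 CPM (SD, n = 3 each), by a log2 value of 0.22 ± 0.048 (SE, edgeR adjusted p = 1.92e-04). INSIG2 stood at 45.2 ± 4.17 and 46.9 ± 0.68 CPM on the scale of all samples, and its log2 fold change in this comparison's own fit, -0.01 ± 0.057 (SE, edgeR adjusted p = 0.819), did not pass the test.

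The enzymes of cholesterol synthesis fell unevenly along the pathway. All 11 genes from squalene to cholesterol were lower with shBRG1, 5 of them past the fold threshold, with log2 fold changes from -1.70 to -0.13 (SC5D, which lost the test without shSCR1 replicate 2 or 3 or shBRG1 replicate 1 or 2, adjusted p from 0.0766 to 0.19). The most lowered were FDFT1 (squalene synthase), LSS (lanosterol synthase, -1.58), MSMO1 (C4 demethylation, -1.43), CYP51A1 (C14 demethylation, -1.39) and EBP (sterol isomerase, -1.01), while SQLE, the squalene monooxygenase that sits between FDFT1 and LSS, gave -0.50. The counts of CYP51A1 are uncertain, as 2844 of its 3584 exon bases are shared with AC000120.2 on the same strand. LSS went from 129, 145 and 141 CPM with shSCR1 to 46.1, 50.3 and 48.2 with shBRG1, and SQLE from 106, 116 and 119 to 85.2, 84.7 and 81.4; both sets of groups were separate. Of the 8 mevalonate genes 5 fell and 1 rose. ACAT2, IDI1 and FDPS, for the first condensation of acetyl-CoA, the isomerisation of isopentenyl diphosphate and the making of farnesyl diphosphate, fell, with log2 fold changes of -1.44, -1.38 and -1.07. HMGCS1, the synthase that makes HMG-CoA, changed by -0.41, from 137, 153 and 152 CPM to 115, 117 and 116. ACAT2, IDI1, FDPS and HMGCS1 share 1458, 643, 693 and 703 exon bases with another gene on the opposite strand. Whether counting used strand is not given, so what these overlaps add to the counts is unknown.

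The genes that rose were STARD4, MVK and SCAP. STARD4 (ENSG00000164211), a carrier of cholesterol between membranes, stood at 39.0, 39.8 and 41.8 CPM with shSCR1 and at 80.0, 71.2 and 75.1 with shBRG1. All shBRG1 samples were above all controls, and the log2 fold change was 0.84 ± 0.053 (SE, edgeR adjusted p = 5.63e-13). MVK, mevalonate kinase, rose from 15.0, 14.1 and 14.2 CPM to 19.4, 21.6 and 19.6, with no overlap and a log2 fold change of 0.41 ± 0.066 (SE, edgeR adjusted p = 4.90e-06). PMVK and GGPS1, for the next phosphorylation of mevalonate and for geranylgeranyl diphosphate, gave 0.08 and 0.06 and did not pass the test. Scaling by library size in place of TMM moved the median of all genes in this comparison from 0.05 to 0.40, and then 11 of the 32 genes were past the thresholds as lower and 1 as higher, where 11.7% and 30.2% of all genes were. The median of the 32 genes was then -0.68.

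**Figure D2:**
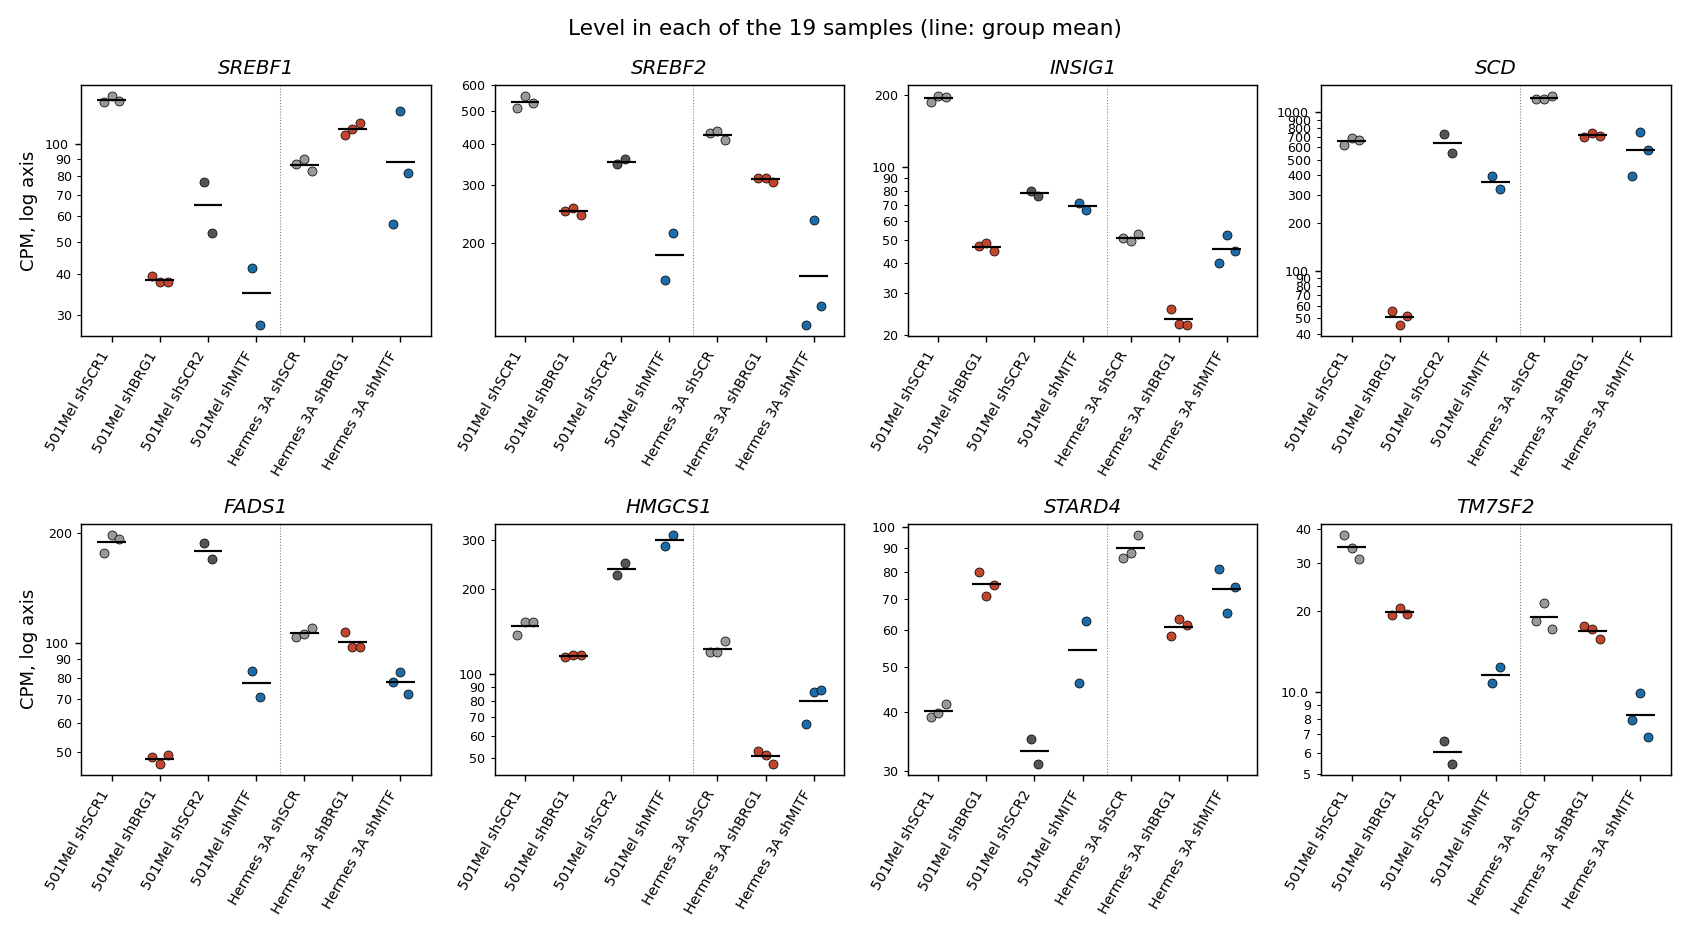
Level in CPM (log axis, TMM-normalized over all 19 samples) of 8 genes in each sample of the 7 groups; points are samples and bars group means, and the dotted line separates 501Mel from Hermes 3A groups. SCD lies between 45.6 and 55.4 CPM in the 501Mel shBRG1 samples and at 326 or more in every other sample, and SREBF1 is lower with shBRG1 than with its scramble in 501Mel cells but higher in Hermes 3A cells.

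In Hermes 3A melanocytes the same hairpin against BRG1 also lowered most of these genes. With shBRG1, 25 of the 32 genes were lower and 2 higher than with shSCR at an adjusted p under 0.05, where 28.6% and 28.2% of the 17222 genes tested were. Past the fold threshold 5 were lower and none higher, where 3.47% and 5.78% of all genes were. The median over the 32 genes was -0.47, against 0.01 over all genes tested. The groups were fully separated for 27 of the genes, 25 lower and 2 higher, where 30.7% and 31.1% of all genes were.

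The 5 past the fold threshold in Hermes 3A cells were HMGCS1 (-1.26), INSIG1 (-1.11), HSD17B7 (-1.06), MSMO1 (-1.03) and IDI1 (-1.01). HMGCS1 (ENSG00000112972) fell from 119, 119 and 130.4 CPM to 52.9, 51.4 and 47.9, a log2 fold change of -1.26 ± 0.047 (SE, edgeR adjusted p = 6.30e-19). Every shBRG1 sample was below every control, and HMGCS1 was the most lowered of the 32 genes here. INSIG1 fell from 50.8, 49.3 and 52.6 CPM to 25.6, 22.3 and 22.1, a log2 fold change of -1.11 ± 0.062 (SE, edgeR adjusted p = 5.17e-15). HSD17B7, the ketosteroid reductase of the C4 demethylation steps, fell from 15.9, 16.5 and 16.9 CPM to 7.80, 7.90 and 7.80, a log2 fold change of -1.06 ± 0.079 (SE, edgeR adjusted p = 2.84e-12); it has a near-identical pseudogene, and its counts are uncertain for that reason. These values lie close to the threshold. The count was 3 without shSCR replicate 3 (3.38% of all genes) and 2 when scaled by library sizes (2.71%). It was 1 when edgeR's glmTreat tested against the threshold itself (1.42%).

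SREBF1 rose in Hermes 3A cells with shBRG1. It stood at 86.8, 89.6 and 82.8 CPM with shSCR and at 106, 111 and 116 with shBRG1, all shBRG1 samples above all controls, a log2 fold change of 0.38 ± 0.046 (SE, edgeR adjusted p = 4.84e-08). SCAP, at 89.6 ± 4.88 and 107 ± 2.70 CPM (SD, n = 3 each), also rose, by 0.27 ± 0.045 (SE, edgeR adjusted p = 1.12e-05). SREBF2 fell from 430.4, 436 and 411 CPM to 316, 315 and 307, a log2 fold change of -0.43 ± 0.039 (SE, edgeR adjusted p = 1.80e-10). SREBF1, SCAP and SREBF2 lost the test when all Hermes 3A groups were fitted together and so shared the wider spread of the shMITF samples (edgeR adjusted p = 0.269, 0.0991 and 0.196), as did ACSS2, DHCR7, LSS, MVD, NSDHL and PMVK. INSIG2 gave -0.04 ± 0.066 (SE, edgeR adjusted p = 0.667) and did not pass. Of the 7 fatty acid genes, FASN (-0.85), SCD (-0.77), ELOVL6 (-0.51), ACLY (-0.45) and ACSS2 (-0.17) fell, and FADS1 and FADS2 gave -0.07 and 0.20 without passing. ACSS2 lost the test without shSCR replicate 1 or 2 or shBRG1 replicate 1 (adjusted p from 0.0514 to 0.105). SCD stood at 1217, 1212 and 1262 CPM with shSCR and 701, 737 and 710.3 with shBRG1. Of the steps from squalene onward 10 of 11 fell, from -1.06 to -0.22, and TM7SF2, a sterol C14 reductase, gave -0.15 with an overlap. Of the mevalonate genes 7 of 8 fell, of which PMVK lost the test without shSCR replicate 2 or shBRG1 replicate 3 (adjusted p = 0.175 and 0.0533), and STARD4 fell from 85.9, 88.0 and 96.0 CPM to 58.2, 63.3 and 61.6, a log2 fold change of -0.55.

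Whether BRG1 silencing acted differently on these genes in the 2 lines was tested as the difference between the effects (501Mel minus Hermes 3A). Of the genes lower with shBRG1, 22 were lower in both lines, which is 22 of the 26 lower in 501Mel cells and of the 25 lower in Hermes 3A cells. Over all 16213 genes tested in both lines, those lower in both were 47.6% of the genes lower in 501Mel and 73.0% of those lower in Hermes 3A cells. The effect was more negative in 501Mel cells for 20 genes and less negative or positive for 6, where 33.1% and 24.8% of 21697 genes tested were at an adjusted p under 0.05; with library sizes the split was 17 and 10, where 24.7% and 35.2% were. The median difference over the 32 genes was -0.46, against -0.03 over all genes.

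MVK, SREBF1 and STARD4 moved in opposite directions, each past the test in both lines, as did 13.4% of all genes tested in both. SREBF1 differed by -2.30 ± 0.066 (SE, edgeR adjusted p = 3.76e-27), falling in 501Mel and rising in Hermes 3A cells. STARD4 and MVK did the reverse, with differences of 1.36 ± 0.075 (SE, edgeR adjusted p = 2.46e-18) and 0.91 ± 0.11 (SE, edgeR adjusted p = 1.26e-09). Of those that fell in both lines, SCD differed by -3.03 ± 0.077 (SE, edgeR adjusted p = 9.54e-29), and HMGCS1 by 0.82 ± 0.07 (SE, edgeR adjusted p = 4.67e-13), the latter falling more in Hermes 3A cells. FADS1, which fell in 501Mel cells and did not pass in Hermes 3A cells, differed by -2.01 ± 0.069 (SE, edgeR adjusted p = 8.66e-25). For the remaining genes of SREBP control the differences were -1.03 ± 0.074 (SE, edgeR adjusted p = 3.99e-15) for INSIG1, -0.75 ± 0.06 (SE, edgeR adjusted p = 9.21e-14) for SREBF2, -0.07 ± 0.066 (SE, edgeR adjusted p = 0.346) for SCAP and -0.01 ± 0.089 (SE, edgeR adjusted p = 0.968) for INSIG2. The squalene steps also divided: FDFT1 and LSS had differences of -1.29 and -1.40, whereas SQLE had 0.08 and did not pass, and SC5D and HSD17B7 fell more in Hermes 3A cells (0.40 and 0.53). All 7 fatty acid genes had a more negative effect in 501Mel cells.

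**Figure D3:**
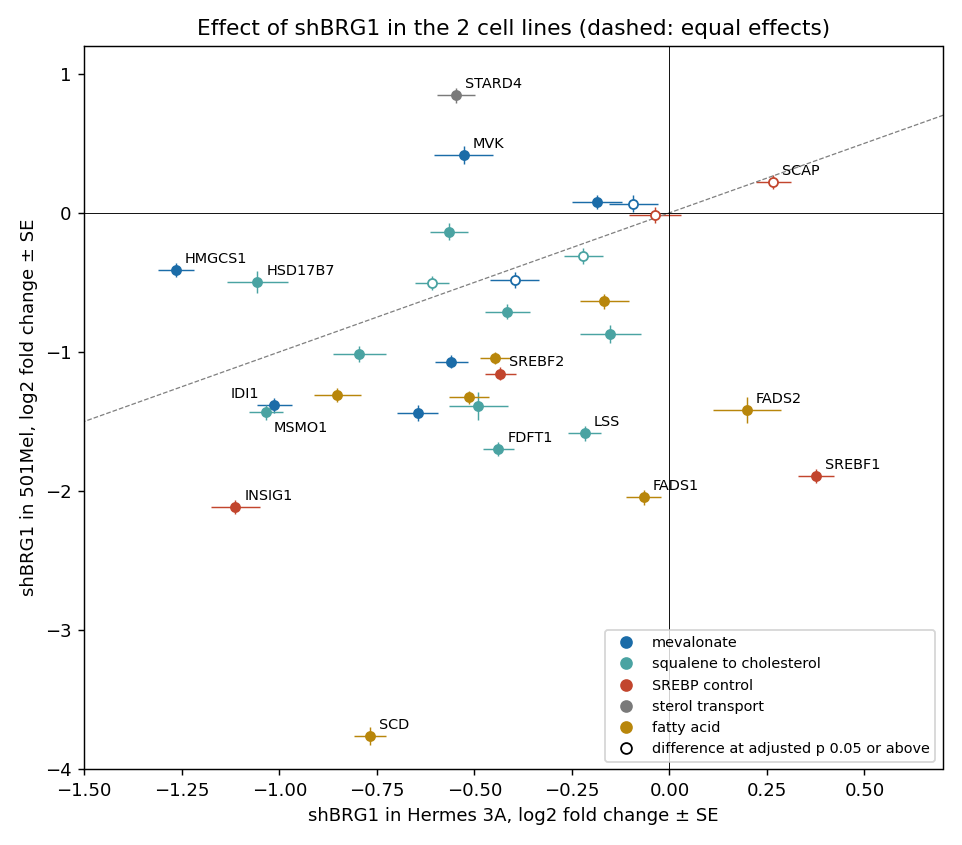
Effect of shBRG1 (log2 fold change) on the 32 genes in Hermes 3A cells (horizontal axis) against that in 501Mel cells (vertical axis), with standard errors, coloured by role; the dashed line marks equal effects, and open points are genes whose difference between lines was at an adjusted p of 0.05 or above. SCD, FADS1, FADS2 and SREBF1 lie far below the line, and STARD4, MVK and HMGCS1 above it.

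MITF silencing in 501Mel cells gave no common direction. With shMITF, 6 of the 32 genes were lower and 7 higher than with shSCR2 at an adjusted p under 0.05, where 10.5% and 10.0% of the 17701 genes tested were, and the median of the 32 was -0.01, against 0.01 over all genes. Past the fold threshold 1 was lower and none higher, where 3.40% and 5.59% were. The 6 that fell were FADS1, SREBF2, SREBF1, SCD, EBP and ELOVL6. These 6 also fell with shBRG1 in this line, where they are 6 of 26; over all 16922 genes tested in both comparisons, those lower in both were 76.1% of the genes lower with shMITF and 18.5% of those lower with shBRG1.

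FADS1 was the 1 gene past the fold threshold. It stood at 188 and 169 CPM with shSCR2 and 83.6 and 71.0 with shMITF, a log2 fold change of -1.17 ± 0.13 (SE, edgeR adjusted p = 8.40e-04). SREBF2 stood at 347 and 358 CPM against 155 and 215, a log2 fold change of -0.89 ± 0.17 (SE, edgeR adjusted p = 0.00864). SREBF1 stood at 76.2 and 53.5 CPM against 41.9 and 28.0, without overlap although the replicates of each group differed widely, and its log2 fold change of -0.86 ± 0.23 (SE, edgeR adjusted p = 0.0399) did not pass without shSCR2 replicate 1 (adjusted p = 0.0546), without shMITF replicate 2 (0.119) or with library sizes (0.071), and was -1.60 (0.0908) against both scramble groups pooled. SCD fell from 726 and 553 CPM to 397 and 326, a log2 fold change of -0.79 ± 0.16 (SE, edgeR adjusted p = 0.0107). EBP and ELOVL6 gave -0.56 and -0.53, the first lost without shSCR2 replicate 2 or shMITF replicate 1 (adjusted p = 0.116 and 0.0829) and the second without shMITF replicate 2 (0.0532).

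Among the genes that rose, TM7SF2 stood at 6.60 and 5.47 CPM with shSCR2 and 10.8 and 12.4 with shMITF, a log2 fold change of 0.99 ± 0.23 (SE, edgeR adjusted p = 0.0174), which did not pass without shSCR2 replicate 2 (adjusted p = 0.0761) or without shMITF replicate 2 (0.106). All of these samples were below the shSCR1 samples of the same line, at 38.0, 34.0 and 31.1 CPM, and against both scramble groups pooled the value was -0.96 (adjusted p = 0.535). TM7SF2 shares 16 exon bases with VPS51 on the same strand. ACSS2 rose from 31.4 and 23.9 CPM to 43.3 and 53.5, by 0.85 ± 0.19 (SE, edgeR adjusted p = 0.0139), lost without shMITF replicate 2 (adjusted p = 0.0594). SCAP rose from 56.5 and 59.1 CPM to 83.7 and 87.9, by 0.61 ± 0.12 (SE, edgeR adjusted p = 0.00968), lost without the same sample (adjusted p = 0.0504). With both scramble groups pooled, ACSS2 gave 0.56 and SCAP 0.28, neither past the test. MVK (0.83), STARD4 (0.76), GGPS1 (0.53) and MSMO1 (0.45) also rose. GGPS1 lost the test without any 1 sample, MSMO1 without either shSCR2 sample or shMITF replicate 2, and STARD4 without replicate 2 of either group. GGPS1 shares 1422 of its 3809 exon bases with TBCE on the same strand, and its counts are uncertain. INSIG1, at 79.8 and 75.9 CPM and 71.2 and 66.4, gave -0.14 ± 0.12 (SE, edgeR adjusted p = 0.463), and INSIG2 gave -0.26 ± 0.15 (SE, edgeR adjusted p = 0.256).

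The effects of the 2 knockdowns in 501Mel cells, each against its own scramble, were then compared directly. The shBRG1 effect was more negative for 27 of the 32 genes and more positive for none at an adjusted p under 0.05, where 26.8% and 21.2% of 22255 genes were, with a median difference of -0.76 against 0.02 over all genes. The widest differences were -2.95 ± 0.17 (SE, edgeR adjusted p = 1.12e-08) for SCD, -1.95 ± 0.10 (SE, edgeR adjusted p = 8.37e-10) for INSIG1 and -1.86 ± 0.12 (SE, edgeR adjusted p = 8.84e-09) for MSMO1. SREBF1 differed by -1.01 ± 0.23 (SE, edgeR adjusted p = 0.00397) and SCAP by -0.36 ± 0.10 (SE, edgeR adjusted p = 0.00664). SREBF2 gave -0.24 ± 0.15 (SE, edgeR adjusted p = 0.212) and INSIG2 0.27 ± 0.13 (SE, edgeR adjusted p = 0.11), neither past the test. PMVK, SC5D and STARD4 were the other genes that did not pass. TM7SF2, MSMO1 and ACSS2 fell with shBRG1 and rose with shMITF, each against its own scramble. Of all genes tested in both comparisons, 5.18% moved in opposite directions. Each difference of effects also holds the difference between shSCR1 and shSCR2. MITF itself fell by -1.55 with shBRG1 and by -1.06 with shMITF, each against its own scramble. SREBF1 was at 37.9 to 39.4 CPM with shBRG1 and 41.9 and 28.0 with shMITF. Its scramble samples were at 134 to 139.6 with shSCR1 and 76.2 and 53.5 with shSCR2. TM7SF2 was lower with shMITF (10.8 and 12.4 CPM) than with shBRG1 (19.3 to 20.4), and both lay below shSCR1.

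In Hermes 3A cells shMITF lowered 6 of the 32 genes and raised none at an adjusted p under 0.05, where 9.15% of the 16508 genes tested were lower and 7.85% higher. The median of the 32 was -0.34, against 0.05 over all genes. Past the fold threshold 3 were lower and none higher, where 4.04% and 3.35% were. The 6 were SREBF2, TM7SF2, SCD, MSMO1 (-0.80), HMGCS1 (-0.60) and FADS1 (-0.43). HMGCS1 and FADS1 lost the test without any 1 shSCR sample, FADS1 also without shMITF replicate 3, and MSMO1 without shSCR replicate 3.

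SREBF2 stood at 430.4, 436 and 411 CPM with shSCR and 114, 235 and 129 with shMITF, all shMITF samples below all controls but widely spread among themselves, a log2 fold change of -1.39 ± 0.26 (SE, edgeR adjusted p = 0.0102). Without shSCR replicate 2 its adjusted p was 0.0509. TM7SF2 fell from 18.3, 21.3 and 17.2 CPM to 7.91, 9.93 and 6.83, a log2 fold change of -1.18 ± 0.19 (SE, edgeR adjusted p = 0.0059), in the direction opposite to that in 501Mel cells against shSCR2. SCD fell from 1217, 1212 and 1262 CPM to 395, 751 and 581, a log2 fold change of -1.07 ± 0.23 (SE, edgeR adjusted p = 0.0166), and lost the test when any 1 shSCR replicate was left out (adjusted p from 0.0554 to 0.0742). The count of 3 past the fold threshold was 1 without shSCR replicate 2 (2.18% of all genes) and none with glmTreat (0.618%). SREBF1 stood at 57.0, 126 and 81.6 CPM with shMITF, on both sides of its controls, a log2 fold change of 0.06 ± 0.25 (SE, edgeR adjusted p = 0.904); shMITF replicate 2 was the highest, and without it the value was -0.30 (adjusted p = 0.221). FASN showed the same wide spread, at 216, 579.8 and 365 CPM with shMITF against 566, 627 and 527, and gave -0.54 without passing. That replicate was also high for SOX10, a melanocyte lineage marker, at 1276 CPM against 419 and 689.8 in the other two. SCAP, INSIG1 and INSIG2 gave 0.22 ± 0.13 (SE, edgeR adjusted p = 0.289), -0.13 ± 0.14 (SE, edgeR adjusted p = 0.548) and -0.18 ± 0.17 (SE, edgeR adjusted p = 0.491).

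The difference between the shMITF effects in the 2 lines passed for 6 of the 32 genes, 4 more positive and 2 more negative in 501Mel cells, where 2.16% and 0.830% of 19284 genes were. The more positive differences were 2.16 ± 0.31 (SE, edgeR adjusted p = 0.00345) for TM7SF2, 1.24 ± 0.22 (SE, edgeR adjusted p = 0.00976) for MSMO1, 1.01 ± 0.23 (SE, edgeR adjusted p = 0.0327) for STARD4 and 0.96 ± 0.21 (SE, edgeR adjusted p = 0.0288) for HMGCS1. FADS2 and FADS1 were more negative in 501Mel cells, by -1.14 ± 0.28 (SE, edgeR adjusted p = 0.0485) and -0.76 ± 0.18 (SE, edgeR adjusted p = 0.0441). The FADS1 and FADS2 differences were each lost without any 1 of the 4 501Mel samples or of the 3 shSCR samples, and that of FADS2 also without shMITF replicate 3 of Hermes 3A cells (adjusted p = 0.051), and the STARD4 difference without shMITF replicate 2 of 501Mel cells, either shSCR2 sample or any 1 shSCR sample. That of HMGCS1 was lost without either shSCR2 sample, 501Mel shMITF replicate 2 or any 1 shSCR sample (adjusted p from 0.0801 to 0.173). MSMO1 lost the test without shSCR2 replicate 2 or 501Mel shMITF replicate 2, while TM7SF2 kept it without any 1 sample. Leaving out a sample does not test the choice of scramble group. In 501Mel cells TM7SF2 was at 10.8 and 12.4 CPM with shMITF, above shSCR2 (6.60 and 5.47) but below shSCR1 (31.1 to 38.0). Against both scramble groups pooled its 501Mel value turned negative, the direction in Hermes 3A cells, without passing the test. FADS1 and FADS2 share 490 exon bases on opposite strands, and whether counting used strand is not given in the sources used here. For SREBF1, SREBF2, SCAP, INSIG1 and INSIG2 the differences were -0.92 ± 0.40 (SE, edgeR adjusted p = 0.259), 0.49 ± 0.37 (SE, edgeR adjusted p = 0.518), 0.38 ± 0.19 (SE, edgeR adjusted p = 0.324), -0.02 ± 0.20 (SE, edgeR adjusted p = 0.982) and -0.09 ± 0.24 (SE, edgeR adjusted p = 0.897).

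Because both Hermes 3A knockdowns share the shSCR samples, shBRG1 and shMITF were also compared directly with each other, without those controls. With shBRG1, 8 of the 32 genes were lower and 2 higher than with shMITF, where 6.90% and 7.36% of 16927 genes were. SQLE was lowest relative to shMITF, at 82.6, 78.7 and 78.8 CPM against 167, 134 and 184, a log2 difference of -1.02 ± 0.14 (SE, edgeR adjusted p = 0.00454). INSIG1 differed by -0.98 ± 0.14 (SE, edgeR adjusted p = 0.00582) and HMGCS1 by -0.67 ± 0.14 (SE, edgeR adjusted p = 0.0188). TM7SF2 and SREBF2 were higher with shBRG1, by 1.02 ± 0.17 (SE, edgeR adjusted p = 0.00993) and 0.96 ± 0.26 (SE, edgeR adjusted p = 0.0479). The SREBF2 value was also lost without shMITF replicate 1 or 3 (adjusted p = 0.0669 and 0.121). With any 1 shBRG1 sample left out 2 genes were lower and none higher, where 0.876% to 1.05% and 1.66% to 1.92% of all genes were. SREBF1, SCAP and INSIG2 gave 0.32 ± 0.26 (SE, edgeR adjusted p = 0.444), 0.05 ± 0.12 (SE, edgeR adjusted p = 0.816) and 0.15 ± 0.16 (SE, edgeR adjusted p = 0.577). The values of SREBF2 over the 4 knockdown comparisons, which include the pair with shared controls, were -1.16, -0.89, -0.43 and -1.39, and those of SCD -3.76, -0.79, -0.77 and -1.07.

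Before knockdown, levels were compared per length (CPM per kb of merged exons, GENCODE 29). SCD was the highest of the 32 genes in all 3 scramble groups, at 123 ± 6.10 (SD, n = 3) with shSCR1, 119 ± 22.8 (SD, n = 2) with shSCR2 and 229 ± 5.15 (SD, n = 3) with shSCR. FADS2 was the lowest in all 3, at 0.806 ± 0.0262, 1.05 ± 0.0398 and 1.10 ± 0.122. In Hermes 3A cells ACLY and FDFT1 (81.9 ± 0.601 for the latter) followed SCD, each separated from the next, while FASN (61.2 ± 5.36) and SREBF2 (56.3 ± 1.75), next in the order, did not differ beyond their spread. SREBF2 exceeded SREBF1 in each line, at 70.4 ± 2.95 against 17.0 ± 0.371 with shSCR1 and 56.3 ± 1.75 against 10.8 ± 0.43 with shSCR. INSIG1 ranked behind SCD, SREBF2 and FASN with shSCR1 (53.0 ± 1.74), where it could not be separated from ACLY (50.4 ± 0.947), but stood at 21.3 ± 0.763 with shSCR2 and 13.9 ± 0.441 in Hermes 3A cells. A nuclease step in library making lowers the most abundant cDNAs, and its effect on these levels was not tested.

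**Figure D4:**
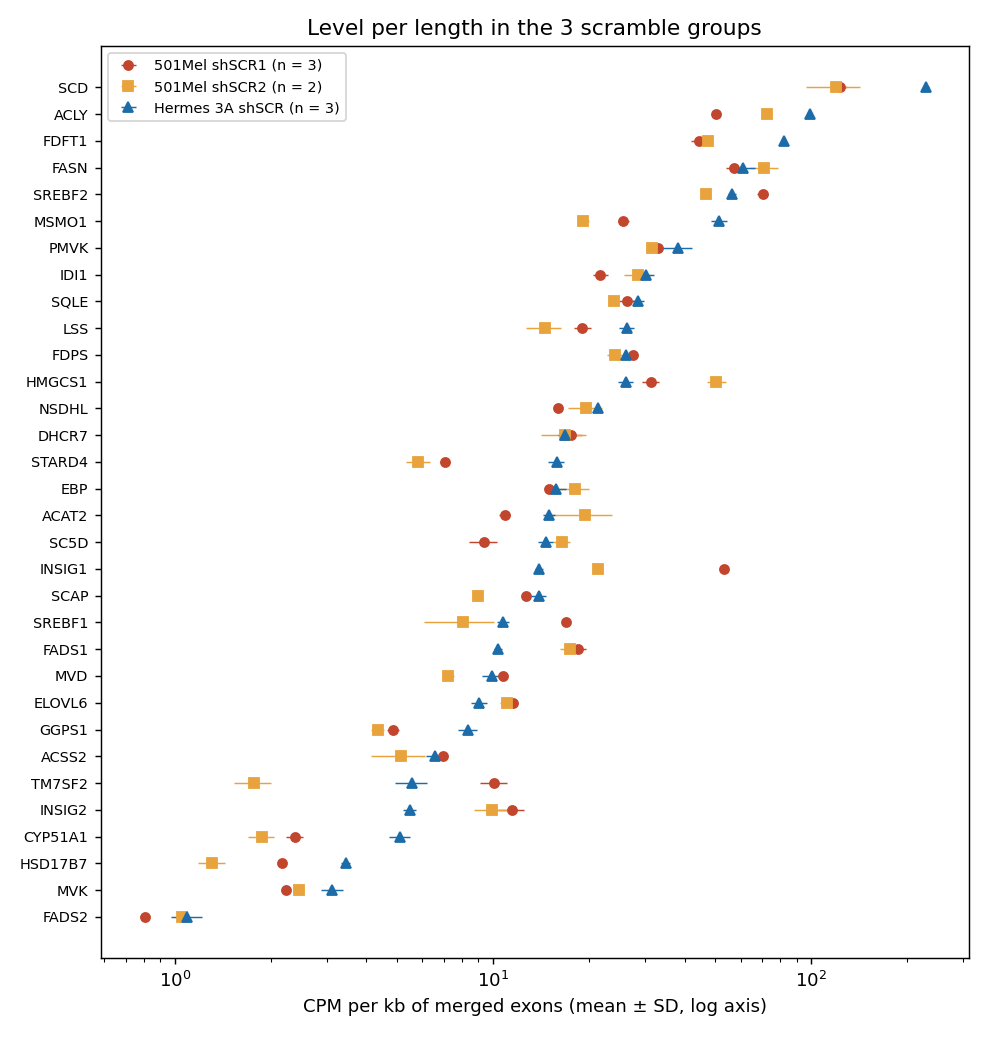
Level per kb of merged exons (CPM per kb, log axis, mean ± SD) of the 32 genes in the 3 scramble groups, ordered by their level in Hermes 3A shSCR. INSIG1 and TM7SF2 stand furthest apart between the 2 scramble groups of 501Mel cells, and SCD is highest in all 3 groups.

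Against Hermes 3A shSCR, the mean of both 501Mel scramble groups was lower for 19 of the 32 genes and higher for 5, where 36.0% and 37.8% of 20354 genes were, with a median difference of -0.24 against 0.08 over all genes; with library sizes the counts were 11 and 11, where 29.9% and 45.8% were. INSIG1 was higher in 501Mel cells, by 1.26 ± 0.055 (SE, edgeR adjusted p = 1.79e-12), a mean of unlike values, 1.92 for shSCR1 alone and 0.60 for shSCR2 alone. INSIG2 was also higher, by 0.95 ± 0.082 (SE, edgeR adjusted p = 1.49e-08). Past the fold threshold 4 were lower and 1 higher, where 18.0% and 20.1% of all genes were. The 4 were STARD4, CYP51A1, MSMO1 and HSD17B7 (-1.31, -1.26, -1.21 and -1.04). SCAP was lower, by -0.39 ± 0.054 (SE, edgeR adjusted p = 5.53e-06). SREBF1 and SREBF2 gave 0.11 ± 0.091 (SE, edgeR adjusted p = 0.278) and 0.02 ± 0.05 (SE, edgeR adjusted p = 0.731), but the 2 scramble groups lay on opposite sides of Hermes 3A. SREBF1 was 0.65 (edgeR adjusted p = 5.71e-12) with shSCR1 alone and -0.43 (0.0197) with shSCR2 alone, and SREBF2 0.32 (8.68e-07) and -0.29 (0.00259), in fits chosen after seeing the data. CYP51A1 shares 2844 exon bases with AC000120.2 on the same strand, and its counts are uncertain.

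The 2 scramble groups of 501Mel cells differed from each other for many of these genes, which bounds what can be read across experiments. With shSCR2, 13 genes were lower and 9 higher than with shSCR1, where 34.5% and 35.3% of 19056 genes were; with library sizes the counts were 19 and 6, where 40.0% and 30.1% were. TM7SF2 differed most, by -2.52 ± 0.13 (SE, edgeR adjusted p = 8.82e-07), from 38.0, 34.0 and 31.1 CPM to 6.60 and 5.47. INSIG1 was at 79.8 and 75.9 CPM with shSCR2, well under the shSCR1 samples, by -1.30 ± 0.069 (SE, edgeR adjusted p = 8.82e-07), and SREBF1 differed by -1.06 ± 0.15 (SE, edgeR adjusted p = 4.24e-04). The shBRG1 samples of 501Mel cells were below both scramble groups for INSIG1, SREBF1, SREBF2, SCD and FADS1. This did not hold for every gene that fell against shSCR1. TM7SF2 (19.3 to 20.4 CPM), HSD17B7 (7.34 to 7.88) and MVD (35.3 to 41.8) lay above shSCR2. Their shSCR2 samples were at 6.60 and 5.47, 6.70 and 5.83, and 33.1 and 35.2. ACSS2 and DHCR7 overlapped shSCR2. Between the scramble groups, SREBF2 and SCAP differed by -0.58 ± 0.066 (SE, edgeR adjusted p = 4.90e-05) and -0.48 ± 0.064 (SE, edgeR adjusted p = 1.30e-04), and INSIG2 by -0.20 ± 0.11 (SE, edgeR adjusted p = 0.129). ACAT2, SC5D, HMGCS1 and ACLY were higher with shSCR2, by 0.85, 0.83, 0.70 and 0.54. SCD and FADS1 gave -0.03 and -0.07 and did not pass.

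Other genes of the same pathways were read from lists that are not members. The shares of all genes tested that were lower and higher at an adjusted p under 0.05, given above, apply to each count: 39.1% and 41.2% with shBRG1 in 501Mel cells, 28.6% and 28.2% with shBRG1 in Hermes 3A cells, 10.5% and 10.0% with shMITF in 501Mel cells, and 9.15% and 7.85% with shMITF in Hermes 3A cells. Of 9 genes of SREBP cleavage and ER retention, 7 fell and 1 rose with shBRG1 in 501Mel cells and 6 fell and 1 rose in Hermes 3A cells. They include MBTPS2, the site-2 protease that releases SREBPs (-1.64 in 501Mel and -0.17 in Hermes 3A cells), MBTPS1, the site-1 protease (-0.62 and -0.10), and ERLIN1 and ERLIN2, which restrain SREBP export (-1.53 and -1.75 in 501Mel cells, and -1.24 for ERLIN1 in Hermes 3A cells). With shMITF 1 of the 9 fell in each line, UBE2G2 (-0.51) in 501Mel and TMEM97 (-0.90) in Hermes 3A cells. Of 22 other fatty acid genes tested in 501Mel cells, 16 fell and 3 rose with shBRG1, among them the acyl-CoA synthetases ACSL5 (-2.48) and ACSL3 (-2.21) and the elongation enzyme TECR (-2.07), and 3 fell and 4 rose with shMITF. In Hermes 3A cells 15 of 21 tested fell and 2 rose with shBRG1, and 8 of 22 fell and 1 rose with shMITF. Of 13 genes of the isoprenoid branch, which uses mevalonate products for ubiquinone, dolichol and prenylated proteins, 6 fell and 4 rose with shBRG1 in each line. Of the genes of cholesterol esterification and transport, 5 of 7 tested fell and 2 rose with shBRG1 in 501Mel cells, whereas 1 of 8 fell and 5 rose in Hermes 3A cells. NPC1, which exports cholesterol from lysosomes, gave -0.69 in 501Mel and 1.34 in Hermes 3A cells, a log2 difference between the lines of -2.07 ± 0.062 (SE, edgeR adjusted p = 1.69e-26), and SOAT1, which esterifies cholesterol, gave -1.33 and 0.60, a difference of -1.96 ± 0.066 (SE, edgeR adjusted p = 6.61e-25). With shMITF 1 of 7 fell and 1 rose in 501Mel cells, and 1 of 8 fell and 2 rose in Hermes 3A cells.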

How the data were processed

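Total RNA from 501Mel and Hermes 3A cells was depleted of ribosomal RNA, and libraries were normalized with duplex-specific nuclease, which lowers abundant cDNAs and may compress differences of highly expressed genes. Each deposited table holds unnormalized read counts by Ensembl identifier for 1 sample; the submitters' processing notes name CASAVA 1.8, TopHat 1.4.1, Bowtie 0.12.7 and hg19. The counting program, strand setting and annotation release are not given in the sources used here. Of the 32 genes, 16 share exon bases with another annotated gene on either strand. The number of genes listed differed between groups, with 33031 listed for every sample.

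Counts were fitted with edgeR 4.0.16 (R 4.3.3; TMM normalization, filterByExpr, robust quasi-likelihood test, Benjamini-Hochberg adjustment over all genes tested, standard error taken from the log2 fold change and F). Calls used an adjusted p under 0.05, with and without a log2 fold change beyond 1 in size. Levels in CPM used one TMM scaling over all 19 samples, and so differ from the fitted fold changes by up to 0.0686 on the log2 scale. Exon lengths, coordinates and overlaps came from GENCODE 29 (GRCh38), not the build the counts were made on. Promoters came from RefSeq. Scripts were tested on simulated counts.

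The genes and lists were chosen with earlier results of these data known. Named were the genes of SREBP control in every comparison, the 3 most negative and 2 most positive past the test in each knockdown comparison, every gene past the fold threshold in a knockdown comparison, and the 3 widest differences of effects in each direction; other members past the test are given where their role is described, and genes of other lists were given as examples. Same-numbered replicates did not deviate together where 3 pairs existed (correlations from -0.049 to 0.049), so no block was used. Alternatives were library-size scaling, other count filters, a replicate block, leaving out each sample, DESeq2 1.42.0, limma-voom (limma 3.58.1), glmTreat, no fold threshold, all groups of a line in one fit, pooled scrambles and, chosen after seeing the data, each 501Mel scramble group alone against Hermes 3A. They were run for the genes of SREBP control and every member past the test in each comparison.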

Additional observations from a re-analysis of the deposited data

Results flagged for a closer look

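The response to shBRG1 differed between 501Mel and Hermes 3A cells by the test of the difference itself for 26 genes. On the log2 scale (501Mel minus Hermes 3A) it was more negative in 501Mel cells for SCD (-3.03), SREBF1 (-2.30), FADS1 (-2.01), FADS2 (-1.64), LSS (-1.40), FDFT1 (-1.29), INSIG1 (-1.03), CYP51A1 (-0.93), ELOVL6 (-0.84), ACAT2 (-0.83), SREBF2 (-0.75), TM7SF2 (-0.75), ACLY (-0.63), FDPS (-0.54), ACSS2 (-0.50), FASN (-0.49), MSMO1 (-0.43), IDI1 (-0.40), NSDHL (-0.32) and EBP (-0.25). It was more positive for PMVK (0.23), SC5D (0.40), HSD17B7 (0.53), HMGCS1 (0.82), MVK (0.91) and STARD4 (1.36). The response to shMITF differed between the lines by the same test for FADS2 (-1.14), FADS1 (-0.76), HMGCS1 (0.96), STARD4 (1.01), MSMO1 (1.24) and TM7SF2 (2.16). The TM7SF2 difference rests on shSCR2 as the 501Mel control, since its 501Mel value turned negative against pooled scrambles. No group held 4 or more samples, so no sample was tested as standing apart from its group.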

How the results depend on the processing

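The counts below are of the 32 genes, and except where a value shows otherwise the cause of a change was not tested. With library sizes in place of TMM, 501Mel shBRG1 had 11 genes lower and 1 higher past both thresholds (11.7% and 30.2% of all genes, median -0.68). In that setting 501Mel shMITF had 1 higher (6.71% of all genes, median 0.085) and Hermes 3A shBRG1 2 lower (2.71%, median -0.36). The Hermes 3A shMITF median was -0.24. The difference of the shBRG1 effects had 10 more positive (35.2% of all genes, median -0.18) and that of the shMITF effects 0 more negative (0.726%). That between knockdowns in 501Mel cells had 1 more positive (28.5%, median -0.54), and Hermes 3A shBRG1 against shMITF 1 higher (7.22%). The lines had 11 lower and 11 higher (29.9% and 45.8%, median -0.047), and the scramble groups a median of -0.23. With no fold threshold the counts were 26 lower and 3 higher, 6 and 7, 25 and 2, and 6 lower, for 501Mel shBRG1 and shMITF and Hermes 3A shBRG1 and shMITF. The shares of all genes for these counts are given above. With glmTreat, 501Mel shMITF and Hermes 3A shMITF each had 0 lower and Hermes 3A shBRG1 1, where 0.463%, 0.618% and 1.42% of all genes were. With at least 10 counts in every sample, the 501Mel shBRG1 median was -0.90, that of the shBRG1 difference -0.26 and that of the scramble groups -0.20. With this filter 501Mel shMITF had 1 higher (5.09% of all genes) and the difference between knockdowns in 501Mel cells 1 more positive (31.4%). Without a filter the 501Mel shBRG1 median was -1.06 and the shMITF difference had 1 more negative (0.887% of all genes). limma-voom called 1 higher with 501Mel shMITF (5.62% of all genes). With pooled scrambles the 501Mel shBRG1 median was -0.93 and 501Mel shMITF had 2 lower (1.27% of all genes).

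Leaving out 1 sample at a time, 501Mel shBRG1 kept a count of 17 lower (17.2% to 18.1% of all genes, median -1.07 to -1.02). 501Mel shMITF had 1 to 2 lower and 0 to 2 higher (median -0.094 to 0.043), where 2.27% to 4.31% and 2.98% to 6.71% of all genes were. The count was 2 lower without shSCR2 replicate 2 or either shMITF replicate, and 2 higher without replicate 1 of either group. Hermes 3A shBRG1 had 3 to 5 lower (3.38% to 3.75% of all genes, median -0.48 to -0.44) and Hermes 3A shMITF 1 to 3 (2.08% to 5.33%). The shBRG1 difference had 19 to 21 more negative and 5 to 7 more positive (median -0.50 to -0.35), where 28.2% to 32.7% and 21.5% to 26.6% of all genes were. The shMITF difference had 0 to 2 and 1 to 6, where 0.113% to 2.65% and 0.636% to 4.09% were. The difference between knockdowns in 501Mel cells had 0 to 1 more positive, and Hermes 3A shBRG1 against shMITF 2 to 10 lower and 0 to 4 higher.

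With a replicate block the shMITF difference between lines had 0 more negative (FADS1 adjusted p = 0.083, FADS2 0.0679), GGPS1 and MSMO1 lost the test in 501Mel shMITF (0.0621 and 0.0568), FADS1 in Hermes 3A shMITF (0.0816), GGPS1 between the Hermes 3A knockdowns (0.0518), and CYP51A1, FADS2, FDPS and STARD4 between the scramble groups (0.174, 0.074, 0.135 and 0.0865), and the 4 knockdown counts of lower genes stayed at 17, 1, 5 and 3; the 2 pairs of 501Mel shMITF correlated at 0.131, and the replicates share only a number. The sign turned for INSIG2 in 501Mel shBRG1 with library sizes (0.33), at least 10 counts (0.11), limma-voom (0.022), pooled scrambles (0.10), without shSCR1 replicate 1 (0.039) and without shBRG1 replicate 1 (0.0005), and gave -0.083 to 0.039 over the left-out samples. It also turned for INSIG2 in Hermes 3A shBRG1 with library sizes (0.068), for TM7SF2 in 501Mel shMITF with pooled scrambles (-0.96), and for SREBF1 in Hermes 3A shMITF under the block (-0.019) or without shMITF replicate 2 (-0.30, with 0.29 at the other end of the left-out samples). With library sizes it turned for DHCR7 (0.040) and SC5D (0.22) in 501Mel shBRG1, for EBP (0.025), INSIG2 (0.27) and SCAP (0.20) in the shBRG1 difference, and for MVD (0.018) and SQLE (0.0092) between the lines. In the shBRG1 difference it also turned for INSIG2 without a filter (0.046), with at least 10 counts (0.19) and over the left-out samples (-0.076 to 0.11), and for SCAP with at least 10 counts (0.12) and over the left-out samples (-0.125 to 0.030). Over the left-out samples it turned for INSIG1 (-0.11 to 0.092) and INSIG2 (-0.21 to 0.092) in the shMITF difference, SREBF2 (-0.48 to 0.066) between knockdowns in 501Mel cells, SCAP (-0.012 to 0.15) in Hermes 3A shBRG1 against shMITF, and SREBF1 (-0.0075 to 0.24) and SREBF2 (-0.0052 to 0.046) between the lines. With shSCR1 alone against Hermes 3A, 8 genes were higher (41.4% of all genes, median -0.17) and the sign turned for MVD (0.11) and TM7SF2 (0.87). With shSCR2 alone it turned for SC5D (0.15), SREBF1 (-0.43) and SREBF2 (-0.29). Of 2803 values of 213 results under alternatives (the genes of SREBP control and each member past the test, by comparison), 2548 kept direction and side of the threshold, 200 lost the test, 16 gained it and 39 changed sign. These genes had at least 160 reads in every sample, and the part of sequencing depth in which genes passed was not tested.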
